A study of Homo sapiens with 2 samples.

Results

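The genes described here encode 35 receptors for chemokines and other chemoattractants, out of 20037 protein-coding genes of the hg38 annotation used. They were chosen by name, and peaks were assigned to a gene when the peak's midpoint lay inside the gene span or within 10 kb of it, and again within 50 kb. The data are peak lists from chromatin immunoprecipitation followed by sequencing in NB4 cells grown in standard medium, for which the labels name no drug. NB4 is a cell line derived from acute promyelocytic leukemia and carries the fusion gene PML-RARA, which both libraries therefore share. The 2 libraries differ in the antibody, ab21061 (7687 peaks) or sc8558 (7562 peaks), both labelled as directed against GFI1. The labels disagree in places, since the immunoprecipitation protocol names the PML/RARα fusion protein as the antibody target and GFI2 stands in the title of the sc8558 sample; the antibody labels were followed. With 1 library per antibody, no control library analysed here and unknown sequencing depth, no test between samples was possible. The values describe these 2 libraries, and a peak is called shared where peaks of both antibodies overlap by at least 1 bp. Peak scores are the authors' own, from the peak caller, and start at 50.01 in both lists. Their levels are not comparable between the lists.

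Chemoattractant receptors are G protein-coupled receptors, most of which signal through Gi proteins to steer leukocytes along gradients of chemokines, formylated bacterial peptides, complement fragments or lipid mediators. Granulocytes and monocytes gain many of these receptors as they mature, and the receptors decide which tissues a cell can enter or leave. GFI1 is a zinc-finger repressor of transcription that is needed for neutrophil development and binds DNA sites built around the letters AATC. Whether a receptor gene is expressed in NB4 cells was not measured in these libraries.

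Shared regions lay within 10 kb of 7 of the 35 receptor genes (20.0%, exact Clopper-Pearson 95% interval 8.44 to 36.9), where the share among all protein-coding genes was 12.8%. The 7 genes were CCR2, CCR6, CCR10, CXCR4, FPR1, CYSLTR1 and S1PR3, and 8 distinct shared regions lay behind them, each joining 1 peak of each list. Peaks of ab21061 were found within 10 kb of 10 receptor genes (28.6%, 14.6 to 46.3), against 17.4% of all genes. Peaks of sc8558 were found near 8 (22.9%, 10.4 to 40.1), against 17.8%. All of these intervals included the share of all genes, so at 10 kb the receptor genes could not be set apart from the background. The intervals cover counting error only and treat the genes as independent, though several lie together. Within 10 kb no peak was counted for more than 1 receptor gene.

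The count of genes with a shared region changed with the score required of both peaks. When peaks of both lists had to score 100 or more, CCR6 was the 1 receptor gene left with a shared region within 10 kb (2.86%, 0.0723 to 14.9), below the 6.29% of all genes. The 6 genes lost each had a peak of 1 antibody above 100 in a shared region, with the peak of the other antibody below it. With the 5000 highest peaks of each list, 6 of the 7 genes were kept and CYSLTR1 was lost. These 6 were 17.1% of the receptor genes (6.56 to 33.6), an interval that included the 9.79% of all genes. With peaks scoring below 100 left out, ab21061 peaks lay within 10 kb of 5 receptor genes (14.3%, against 8.41% of all genes). The sc8558 peaks that remained lay within 10 kb of 4 (11.4%, against 8.33%). Receptor genes also had shorter spans than most, with a median of 11.7 kb against 24.1 kb. Among the genes with spans from 1.90 to 68.8 kb, the range of the receptor genes, 9.29% had a shared region within 10 kb.

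Widening the window to 50 kb brought in more peaks of ab21061 than of sc8558. Peaks of ab21061 lay within 50 kb of 22 receptor genes (62.9%, 44.9 to 78.5), where 31.7% of all genes had one. For sc8558 the count was 17 (48.6%, 31.4 to 66.0), with 32.4% among all genes, a value inside the interval. Shared regions lay within 50 kb of 11 (31.4%, 16.9 to 49.3), against 24.3%. At a score of 100 or more the ab21061 count fell to 10 (28.6%, 14.6 to 46.3), and its interval then included the 16.3% of all genes. The sc8558 count fell to 7 (20.0%, against 16.5%) and the shared count to 4 (11.4%, against 12.6%). Thus a share whose interval lay wholly above the background was seen for ab21061 within 50 kb with all peaks, and in none of the other 11 combinations of antibody, window and score threshold plotted. With the 5000 highest peaks of each list, not plotted, the ab21061 count within 50 kb was 17 (48.6%, 31.4 to 66.0). Its interval again lay above the 24.2% of all genes. The sc8558 and shared intervals there included the shares of all genes (24.7% and 18.9%). At 50 kb neighbouring receptor genes share peaks, so the intervals are too narrow for genes that lie together.

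**Figure D1:**
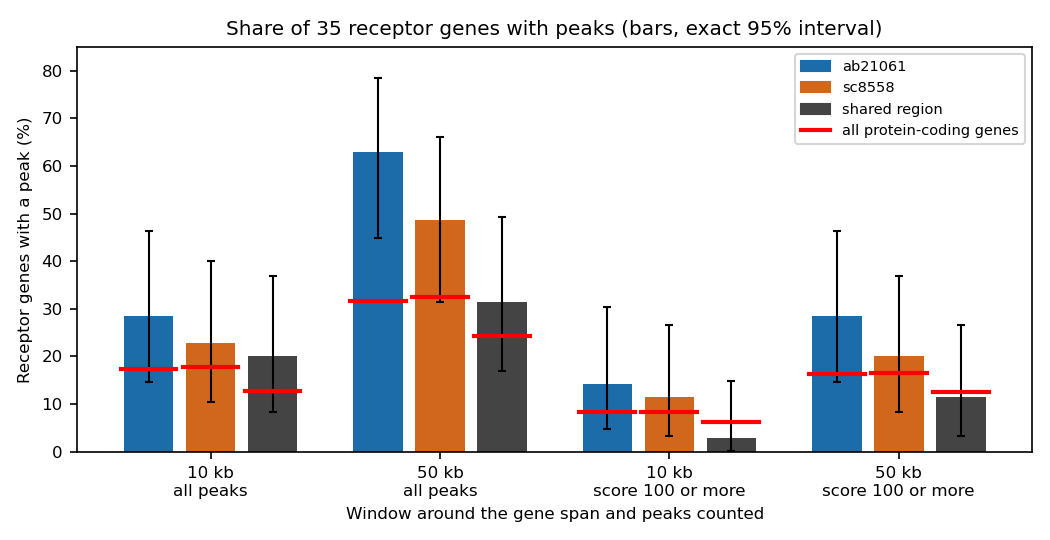
Share of the 35 receptor genes with a peak of ab21061, a peak of sc8558 or a shared region (bars, with exact 95% intervals), within 10 and 50 kb, for all peaks and at a score of 100 or more; red lines give the share of all protein-coding genes. The ab21061 bar at 50 kb reaches 62.9% above a red line at 31.7%, while the shared bars stand at 20.0% and 31.4% for all peaks and at 2.86% and 11.4% at the higher score.

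Peaks near the receptor genes had median scores above those of the whole lists and widths close to them; these differences were not tested. Within 50 kb lay 26 distinct ab21061 peaks, with a median score of 96.9 against 82.4 for the whole list, and a median width of 816 bp against 776 bp. The 19 distinct sc8558 peaks had a median score of 98.0 against 81.7 and a median width of 793 bp against 746 bp. Of the ab21061 peaks 14 were overlapped by the other list (53.8%, 33.4 to 73.4), and of the sc8558 peaks also 14 (73.7%, 48.8 to 90.9). The shares over the whole lists were 63.7% and 65.0%, inside both intervals. Peaks without overlap scored at most 147.04 with ab21061 and at most 86.34 with sc8558.

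**Figure D2:**
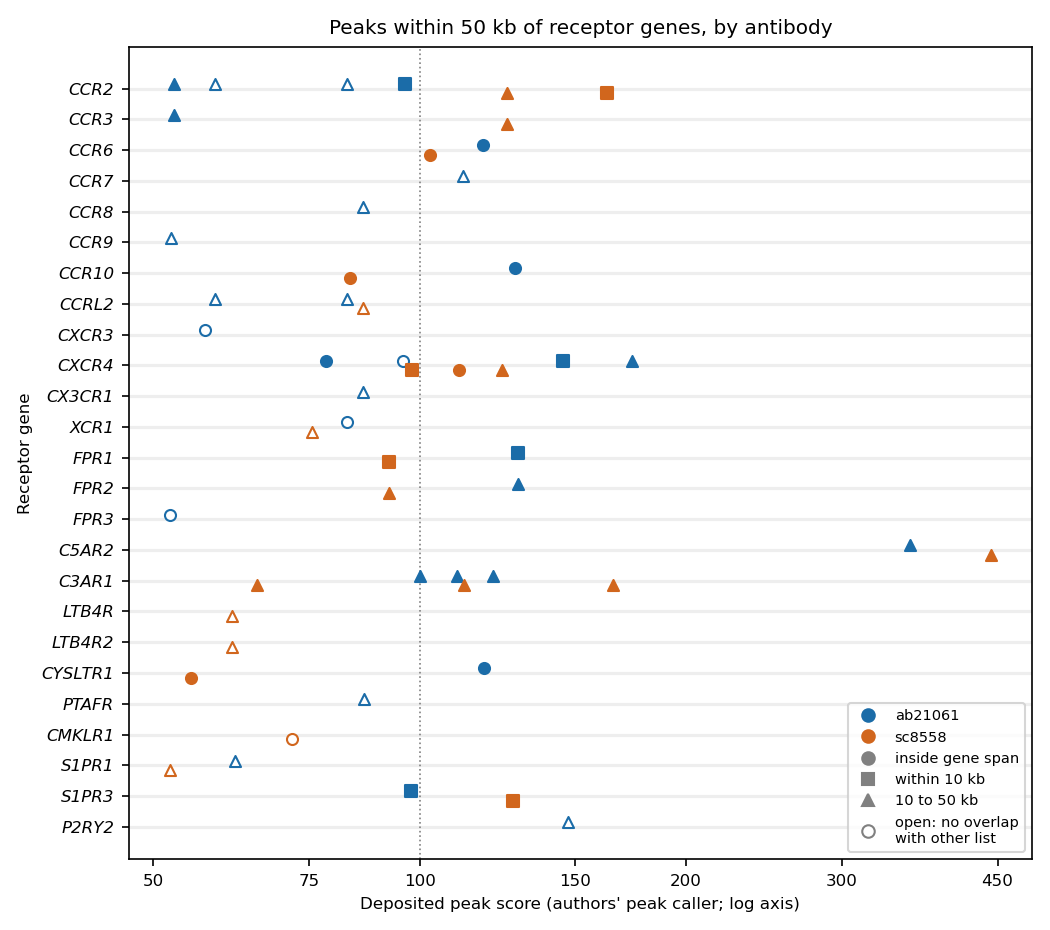
Score of every peak within 50 kb of a receptor gene (log axis), by gene and antibody; circles lie inside the gene span, squares within 10 kb and triangles between 10 and 50 kb, and open symbols have no overlapping peak in the other list. All other symbols lie at or below 173.93, and the pair beside C5AR2, at 358.45 and 442.35, lies to the right of them.

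Promoter windows, taken from the RefSeq promoter table of GRCh38.p14 as 250 bases before to 50 bases after an annotated start, were given for 27 of the 35 genes (41 windows, since some genes have several starts). Peaks of both antibodies reached a window of 2 of these 27 genes, CCR2 and CXCR4 (7.41%), where 1.80% of 15843 genes with a window had one reached by both. The count rests on 2 genes and was not tested, so nothing can be read from the difference. In CXCR4 the reached window belongs to a start inside the gene span, not to the start of the span. The sequences of the reached windows are shown because in both genes the peaks of both antibodies covered all 300 bases. Capitals mark AATC, the core of the GFI1 site, on either strand (GATT on the printed strand), and each sequence runs 5′ to 3′ along the gene.
CCR2, chr3:46353861-46354160, plus strand: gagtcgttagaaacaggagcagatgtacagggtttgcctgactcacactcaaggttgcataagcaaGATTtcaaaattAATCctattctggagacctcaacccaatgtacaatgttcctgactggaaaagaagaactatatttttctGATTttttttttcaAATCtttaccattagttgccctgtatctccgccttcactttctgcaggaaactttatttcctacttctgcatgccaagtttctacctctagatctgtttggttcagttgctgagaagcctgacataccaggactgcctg
CXCR4, chr2:136116186-136116485, minus strand: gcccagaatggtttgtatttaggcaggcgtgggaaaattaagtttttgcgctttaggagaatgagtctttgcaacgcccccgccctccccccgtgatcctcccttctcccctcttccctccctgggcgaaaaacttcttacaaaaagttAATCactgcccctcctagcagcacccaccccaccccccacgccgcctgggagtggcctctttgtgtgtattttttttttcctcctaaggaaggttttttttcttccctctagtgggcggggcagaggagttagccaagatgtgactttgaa

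The CCR2 window held 4 AATC matches, and the CXCR4 window held 1. AATC is short and common, and 65.1% of the 22199 promoter windows of protein-coding genes held it. The share was 79.5% among the 322 windows that peaks of both antibodies reached, and 80.5% among the 41 windows of the receptor genes. The CXCR4 match lies within a longer one to AATCACNGC, the centre of the GFI1 consensus, at bases 150 to 158 of the window. This longer motif was searched after the sequence had been seen. It was present in 1.01% of all windows and in 5.59% of the 322 reached by both antibodies. CXCR4 was the 1 receptor gene of the 27 with a match. A match describes letters and does not show a bound site.

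Among the CC chemokine receptors, 3 of 9 had a shared region within 10 kb, where 12.8% of all genes had one: CCR2, CCR6 and CCR10. With 9 genes nothing can be read from this count. CCR2, the receptor for the monocyte chemoattractant CCL2, lies at chr3:46354111-46360940. The ab21061 peak at its start, chr3:46353713-46354375, scored 96.16 and the sc8558 peak, chr3:46353488-46354229, scored 162.85. Their midpoints lay 67 and 253 bp before the annotated start, and both peaks cover the sequence printed above. A second shared pair, 37.6 and 37.5 kb before the gene, scored 52.77 and 125.6. Beyond the gene, 2 ab21061 peaks without overlap scored 82.72 and 58.73, at 23.2 and 25.4 kb.

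CCR6, the receptor for CCL20 on lymphocytes and dendritic cells, had a pair inside its span, chr6:167128948-167129716 with a score of 117.83 for ab21061 and chr6:167128917-167129777 with 102.73 for sc8558. It lay 6.24 and 6.25 kb after the nearest of the annotated starts. CCR10, a receptor for skin and mucosal chemokines, has a span of 2.96 kb on chromosome 17, and an ab21061 peak of 1119 bp (128.08) and an sc8558 peak of 894 bp (83.36) both lay in it, near the lower-coordinate end.

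The other 6 CC receptor genes had no peak within 10 kb, where 17.4% (ab21061) and 17.8% (sc8558) of all genes had one. CCR3, the eotaxin receptor of eosinophils, was reached at the very edge of the wider window by the pair that also lies before CCR2, at 49.8 and 49.9 kb. CCR7, the lymph node homing receptor, had an ab21061 peak of 111.78 at 36.8 kb, and its nearest sc8558 peak was 227 kb away. CCR8, a receptor of T helper and regulatory cells, had an ab21061 peak of 86.37 at 11.9 kb. The same peak lay 24.9 kb from CX3CR1, and the nearest sc8558 peak was 1470 kb from CCR8. CCR9, which guides cells to the gut, had an ab21061 peak of 52.38 at 27.0 kb, inside the neighbouring gene LZTFL1. CCR1 and CCR4 had no peak within 50 kb, with nearest ab21061 peaks at 108 and 416 kb and nearest sc8558 peaks at 90.9 and 159 kb. CCR1 is a receptor for inflammatory chemokines on monocytes and neutrophils, and CCR4 is a receptor of T helper cells.

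Of the receptor genes 12 lie on chromosome 3, and 7 of them (CCR9, CXCR6, XCR1, CCR1, CCR3, CCR2 and CCRL2) within a stretch of 523 kb, chr3:45886064-46409523. This stretch held 5 ab21061 peaks, 3 sc8558 peaks and 2 shared regions. Both shared regions lay at or before CCR2. The pair before CCR2 was also the one that gave CCR3 its shared region.

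**Figure D3:**
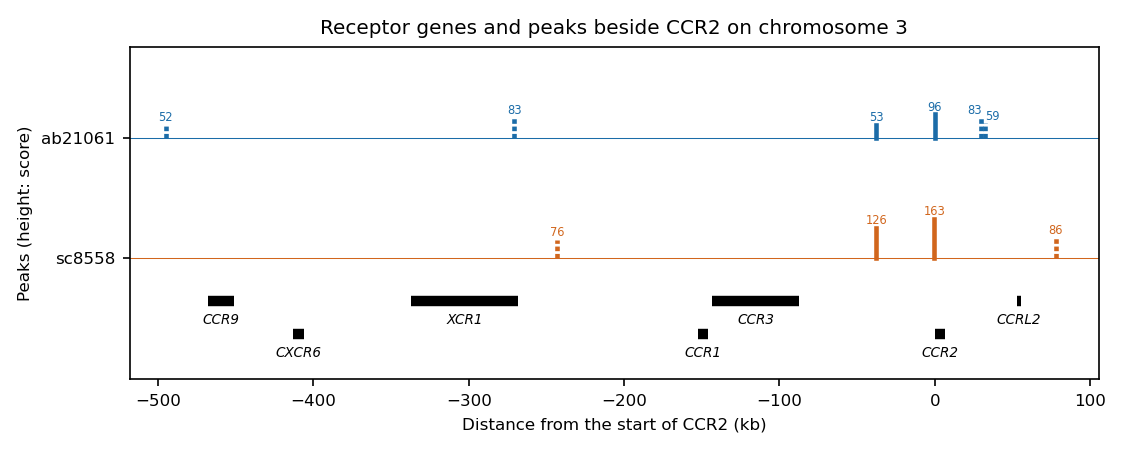
Peaks of both antibodies (upper and lower lines, bar height and number giving the score, broken bars having no overlapping peak in the other list) and 7 receptor genes (black bars) along chromosome 3, as distance from the start of CCR2 in kb. Solid bars, the shared pairs, stand at CCR2 (96.16 and 162.85) and before it (52.77 and 125.6), and the other peaks in view are single.

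Among the 8 receptors for CXC, CX3C and XC chemokines, CXCR4 had a shared region within 10 kb, again beside 12.8% of all genes. CXCR4 binds CXCL12 and holds immature granulocytes in the bone marrow. It spans 3.80 kb, chr2:136114349-136118149, on the minus strand, and had 3 annotated starts in the promoter table. A shared region at chr2:136115920-136116801, with scores of 78.36 for ab21061 and 110.85 for sc8558, covered the start at base 136116235, whose window is printed above. This start lies inside the gene span. The windows of its other 2 starts, 1 of them at the start of the span (base 136118149), were not reached. A second region, chr2:136112972-136113910, lay 0.908 kb past the far end of the gene and scored 145.28 and 98.0. Between these regions, an ab21061 peak at chr2:136114136-136114677, scoring 95.66, had no overlap. Before the gene, at 18.1 kb, lay another region, chr2:136135433-136137153, which scored 173.93 and 123.77. Thus CXCR4 had 3 shared regions within 50 kb, as did C3AR1. These were 2 of 35 receptor genes (5.71%), where 1.82% of all genes had 3 or more. The difference rests on 2 genes and was not tested, and the regions around C3AR1 lay nearer to neighbouring genes.

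CXCR3, a receptor of activated T cells, had an ab21061 peak inside its span, scoring 57.16, without overlap; the nearest sc8558 peak was 84.2 kb away. XCR1, a receptor of cross-presenting dendritic cells, had an ab21061 peak of 82.67 in its span and an sc8558 peak of 75.58 at 25.0 kb, which did not overlap. For CX3CR1, the fractalkine receptor of monocytes, the single ab21061 peak lay beyond 10 kb, as given for CCR8. CXCR1 and CXCR2 bind CXCL8 and are the main chemokine receptors of mature neutrophils. Peaks of both antibodies lay far from them, at 441 kb from CXCR1, and at 471 kb (ab21061) and 470 kb (sc8558) from CXCR2. CXCR5, the receptor of follicular lymphocytes, had nearest peaks at 198 and 184 kb, and CXCR6, a receptor of resident T cells, at 81.9 and 162 kb.

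The atypical receptors bind chemokines without the usual G protein signal and mostly remove or present them. None of the 4 had a peak of either antibody within 10 kb, where 17.4% (ab21061) and 17.8% (sc8558) of all genes had one. With 4 genes nothing can be read from this count. CCRL2, which presents chemerin, had 2 ab21061 peaks, at 23.2 and 20.9 kb, shared in position with those beyond CCR2, and an sc8558 peak of 86.34 at 22.3 kb on its other side. None of these 3 peaks had an overlap. ACKR2, ACKR3 and ACKR4 had no peak within 50 kb. Nearest peaks of ab21061 and sc8558 lay 79.7 and 79.4 kb from ACKR2, 179 and 190 kb from ACKR4, and 1110 kb from ACKR3, a second receptor for CXCL12.

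The formyl peptide receptors, which sense bacterial and mitochondrial peptides on neutrophils and monocytes, lie together on chromosome 19. FPR1, at chr19:51745172-51751878 on the minus strand, had a pair beyond its far end, chr19:51735852-51736774 with 129.08 for ab21061 and chr19:51736112-51736697 with 92.32 for sc8558. The midpoints were 8.86 and 8.77 kb from the gene and 15.6 and 15.5 kb after its start. HAS1, a hyaluronan synthase gene, had the nearest annotated start, at 12.3 kb. FPR2 was reached by the same pair at 24.9 and 24.8 kb, so the 2 genes count 1 region. FPR3 had an ab21061 peak of 52.19 in its span, which ZNF577 also overlaps, and its nearest sc8558 peak was 58.8 kb away.

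The complement receptors had no peak within 10 kb, where 17.4% of all genes had an ab21061 peak and 17.8% an sc8558 peak. Within 50 kb, 2 of 3 had shared regions, against 24.3% of all genes, and with 3 genes nothing can be read from this count. C3AR1, the receptor for the C3a fragment, at chr12:8056844-8066359, had 3 shared pairs around it. They scored 110.07 (ab21061) and 165.18 (sc8558) at 10.7 and 10.8 kb, 120.91 and 65.45 at 15.8 and 15.9 kb, and 100.03 and 112.31 at 30.3 and 30.2 kb. Neighbouring genes were nearer to all of them. The first lay inside FOXJ2, the second 0.141 kb (ab21061) from a start of NECAP1, and the last 6.18 kb from a start of FOXJ2. C5AR2, a receptor for C5a that does not couple to G proteins in the usual way, had the highest-scoring pair, chr19:47384323-47391932 at 358.45 and chr19:47384463-47390127 at 442.35. These were also the widest peaks, 7610 and 5665 bp, and ranked 400 and 252 in their lists. They lay 40.8 and 40.0 kb from C5AR2, and MEIS3 had the nearest annotated start, at 31.4 kb. C5AR1, the main C5a receptor of neutrophils, lay 66.1 and 65.2 kb from the same pair.

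**Figure D4:**
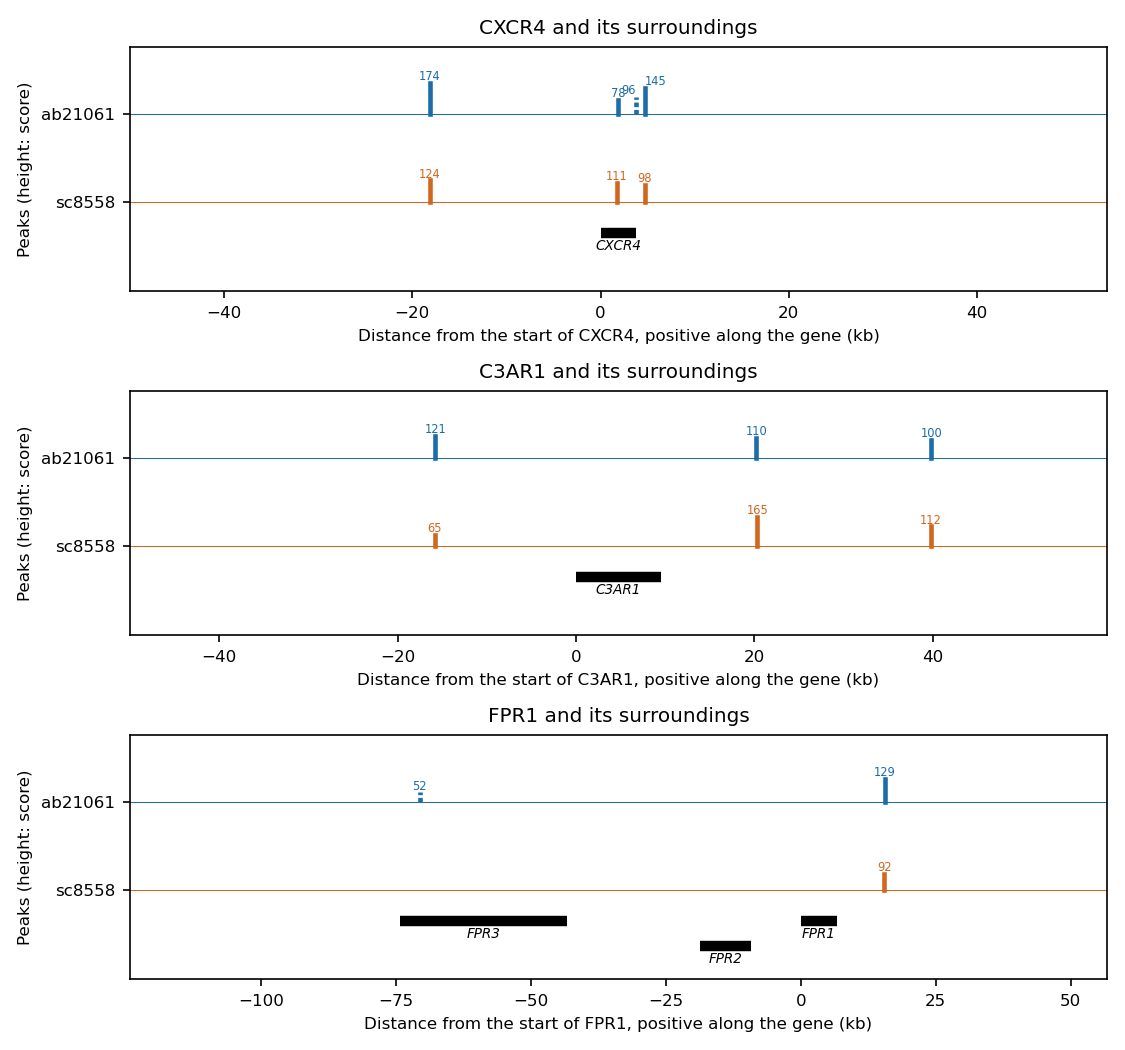
Peaks around CXCR4 (top), C3AR1 (middle) and the formyl peptide receptor genes (bottom), drawn as in the map of chromosome 3, as distance in kb from the start of CXCR4, C3AR1 and FPR1, positive along the gene. Shared pairs (solid bars) fall in and on both sides of CXCR4, on both sides of C3AR1 but not in it, and beyond the far end of FPR1.

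Of the 6 lipid mediator receptors, CYSLTR1 and S1PR3 had shared regions within 10 kb, where the share of all genes was 12.8%. With 6 genes nothing can be read from this count. CYSLTR1, a cysteinyl leukotriene receptor on chromosome X and on the minus strand, had a pair inside its span, chrX:78321281-78322122 with 118.28 for ab21061 and chrX:78321287-78321792 with 55.14 for sc8558. The midpoints lay 5.91 and 6.07 kb after its start. S1PR3, a sphingosine 1-phosphate receptor, had a pair before its start, chr9:88988688-88989477 with 97.64 and chr9:88988559-88989630 with 127.64. Midpoints were 1.78 and 1.77 kb upstream, which places this pair outside the promoter window. S1PR1, which lets lymphocytes leave lymphoid organs, had an ab21061 peak of 61.88 at 46.4 kb and an sc8558 peak of 52.2 at 49.5 kb, without overlap. PTAFR, the receptor for platelet-activating factor, had an ab21061 peak of 86.45 at 31.7 kb. LTB4R and LTB4R2, adjoining genes for leukotriene B4 receptors, shared 1 sc8558 peak of 61.33 inside NOP9, at 33.6 and 32.2 kb, and their nearest ab21061 peaks were 342 and 348 kb away.

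CMKLR1, the chemerin receptor, had an sc8558 peak in its span that scored 71.72, and its nearest ab21061 peak was 281 kb away. The sc8558 peak lay 11.4 kb after the start given in the promoter table, which is itself inside the gene span. CMKLR1 was the 1 receptor gene with an sc8558 peak but no ab21061 peak within 10 kb, while 3 (CXCR3, XCR1 and FPR3) had the reverse. The share of all genes with peaks of 1 antibody alone was not counted, so nothing can be read from these counts. P2RY2, a nucleotide receptor that responds to ATP and UTP, had an ab21061 peak of 147.04 at 11.6 kb, just beyond the narrower window, and its nearest sc8558 peak was 60.6 kb away. Among the members just outside 10 kb were also C3AR1 and CCR8, while FPR1, at 8.86 kb, lay just inside.

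**Figure D5:**
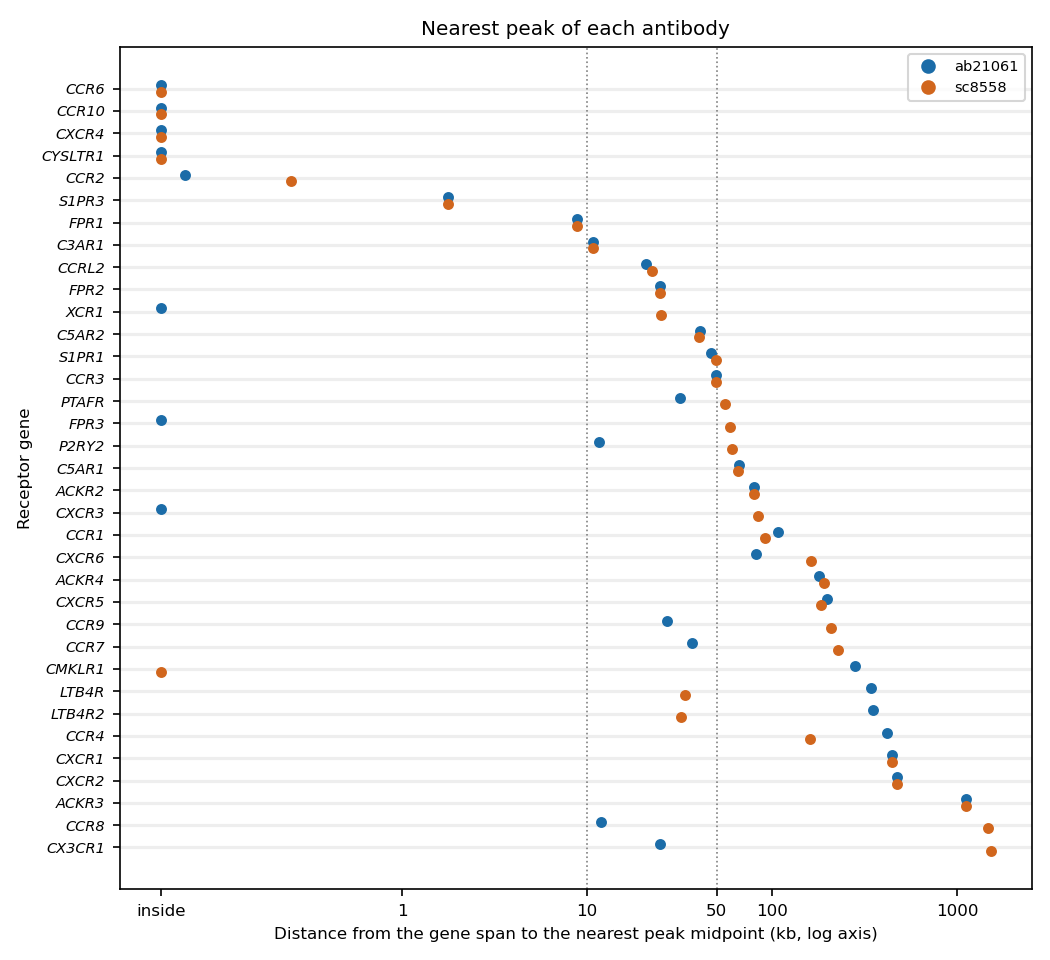
Distance from each of the 35 receptor genes to the nearest peak midpoint of each antibody (log axis; dotted lines at 10 and 50 kb), ordered by the farther of the antibodies. In CCR6, CCR10, CXCR4 and CYSLTR1 both antibodies had a peak inside the gene, and 10 genes had no peak of either within 50 kb.

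The nearest ab21061 peak was a median of 31.7 kb from a receptor gene and the nearest sc8558 peak 55.5 kb, where the medians over all protein-coding genes were 120 and 116 kb. For the nearest shared region the medians were 108 and 180 kb. The 10 genes without any peak within 50 kb were CCR1, CCR4, CXCR1, CXCR2, CXCR5, CXCR6, ACKR2, ACKR3, ACKR4 and C5AR1. Among all genes 31.7% had an ab21061 peak and 32.4% an sc8558 peak within 50 kb, and the share with neither was not counted.

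The other genes of the pathway were counted in the same way. Of 39 chemokine ligand genes 3 had a shared region within 10 kb (7.69%, 1.62 to 20.9), an interval that includes the 12.8% of all genes. They were CXCL9 (scores 315.21 and 208.28), a ligand of CXCR3, CCL22 (140.36 and 115.01), a ligand of CCR4, and CCL20 (69.58 and 57.77), the ligand of CCR6. Of these receptors, CCR6 had a shared region too. Ligand genes are short, with a median span of 3.04 kb.

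Among 12 genes for enzymes and ligands of the other chemoattractants 3 had a shared region within 10 kb (25.0%, 5.49 to 57.2), an interval that includes the 12.8% of all genes. LTA4H, the hydrolase that makes leukotriene B4, held a shared region at chr12:96035336-96038317 with scores of 1146.84 and 1176.02, higher than any peak within 50 kb of a receptor gene. ALOX5AP, which helps start leukotriene synthesis, had 2 regions, 1 of them at 252.31 and 321.1. C5, the precursor of C5a, had one at 86.9 and 71.26. The receptors for leukotriene B4 themselves had their nearest shared regions at 342 kb (LTB4R) and 348 kb (LTB4R2).

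Genes for signalling behind the receptors had shared regions within 10 kb in 11 of 26 cases (42.3%, 23.4 to 63.1), an interval above the 12.8% of all genes. The list was chosen with earlier results of these data known, so the interval cannot be read as independent support. GNA15, a G protein alpha subunit of blood cells, held a shared region with scores of 411.63 and 317.05. Genes were named by the lower of their pair of scores, which sets no order between the lists. VAV1, a signalling protein of blood cells, held one at 239.49 and 172.24. PREX1, a Rac exchange factor, held 4 regions, 1 of them scoring 162.3 and 190.87, and RGS2, a brake on G protein signals, had one at 254.2 and 157.02. PTK2B, a focal adhesion family kinase gene (149.51 and 165.17), had 3 and ELMO1 (101.46 and 142.36), a partner of DOCK proteins, had 6. These genes have a median span of 27.5 kb, longer than that of the receptor genes. As a comparison among receptors, 13 of 34 cytokine and growth factor receptor genes had a shared region within 10 kb (38.2%, 22.2 to 56.4), beside 7 of 35 chemoattractant receptor genes. Their intervals overlap, their median span was 42.6 kb, and the difference was not tested.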

How the data were processed

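Peaks were listed for 1 library per antibody. Per the submitters' processing notes, Bowtie2 2.2.9, MACS 1.4.2 and hg38 were used; their options, read filters and the control are not stated there. Scores were deposited by the authors and come from the peak caller. Gene spans came from RefSeq (GRCh38.p14), where all 35 symbols matched; exon boundaries were not used here. Overlapping peaks of the 2 lists were merged into 4853 shared regions, placed by their midpoints. Each count was made over 20037 protein-coding genes as background. Motifs for GFI1 (AATC and, containing it, TAAATC and AATCACNGC), ETS (GGAA), RUNX (TGTGGT) and AP-1 (TGANTCA) factors were searched on both strands. Members, lists and the naming rule (every member accounted for, up to 6 genes of each other list) were chosen with earlier results of these data known. Gene assignment was tested on simulated peaks. Depth is unknown, and intervals cover counting error only. Alternatives were a score of 100 or more, the 5000 highest peaks, any base in the window, 50% overlap, windows of 5 kb or 1 kb around gene ends, and genes of matching span. Scripts ran in Python 3.11.15 with pandas 2.3.3, scipy 1.17.1, numpy 2.4.6 and matplotlib 3.10.9.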

Additional observations from a re-analysis of the deposited data

How the results depend on the processing

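Of 42 recomputed values, 29 stayed within 1.5 times the value reported. At a score of 100 or more, 5 members had an ab21061 peak within 10 kb (14.3%, against 8.41% of all genes). For sc8558 there were 4 members (11.4%, against 8.33%). A shared region was left for 1 member (2.86%, against 6.29%), from 1 distinct region. Within 50 kb these were 10, 7 and 4 members, against 16.3%, 16.5% and 12.6% of all genes, and 5 distinct regions. Fewer peaks enter by construction. Within 1 kb of gene ends, CCR2, CCR10 and CXCR4 had peaks of each antibody and a shared region, from 3 regions. These 3 members (8.57%, 1.8 to 23.1) stood against 3.19% of all genes for ab21061, 3.37% for sc8558 and 2.28% for shared regions. The interval included all of these shares, and the window is narrower by construction. The 5000 highest peaks of each list, any base in the window, 50% overlap, a window of 5 kb and genes of matching span left each value within that limit. With 5 kb, FPR1 was lost, leaving 6 genes with a shared region (17.1%, 6.56 to 33.6, against 11.2% of all genes). No paired analysis was possible because each antibody had 1 library and no test was made. No library was left out for the same reason, and unknown depth limits any reading of a missing peak.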

Other observations

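Motif letters in the promoter windows of the receptor genes belong to no comparison of the antibodies and are given here as values, without a test. TGTGGT, the core letters of RUNX sites, stood in a window of 12 of 27 receptor genes (44.4%), where 14.5% of 15843 genes had one. The 12 were CCR1, CCR3, CCR6, CCRL2, CXCR1, CXCR2, CXCR3, CXCR6, CX3CR1, FPR1, C5AR1 and PTAFR. TGANTCA, the AP-1 letters, stood in windows of 6 receptor genes (22.2%, against 8.04%), including CCR2. Neither window that the peaks reached held TGTGGT, and the CCR2 window held 1 TGANTCA match. TAAATC stood in windows of CCR9, FPR2 and S1PR3 (11.1%, against 8.38%), none of them reached by a peak. AATC stood in windows of 22 receptor genes (81.5%, against 71.1%). GGAA, the ETS core, stood in all 27 and in 96.3% of all genes. The windows of the receptor genes had a median of 52.0% G and C, against 62.3% over all windows, and the part of base composition in these shares was not tested.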
